A study of Mus musculus with 5 samples.

Results

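The nuclei described here are inhibitory interneuron nuclei of the mouse dentate gyrus area that carried RNA of Lhx6 but little RNA of Sst. They were chosen by measured UMI counts: a barcode was a member when it held at least 1000 UMIs, a mitochondrial share of at most 5%, at least 2 UMIs of Gad1 and Gad2 together, at least 1 UMI of Lhx6, at most 2 UMIs of Sst and at most 1 UMI of Slc17a7. A UMI is a molecular tag that marks 1 captured RNA molecule. The rule found 249 nuclei among 24096 barcodes that passed the UMI and mitochondrial limits, of 32576 barcodes in 3 nuclei libraries and 95918 barcodes in the whole series. They are called Lhx6 nuclei below.

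Lhx6 is a transcription factor that interneurons born in the medial ganglionic eminence (MGE) switch on in the embryo and keep as adults. Its best known lineages in the hippocampus are parvalbumin basket cells, which inhibit the cell bodies of principal neurons, axo-axonic cells, which contact the axon initial segment, somatostatin cells, which inhibit dendrites, and ivy and neurogliaform cells, which release GABA slowly and diffusely. All of them make GABA with the enzymes encoded by Gad1 and Gad2. In the dentate gyrus, inhibition of this kind keeps most granule neurons silent and is studied for its part in contextual memory.

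The study concerns fear memory, reactive astrocytes and signalling of interleukin 3 through the receptor subunit CSF2RB2. Each nuclei group was 1 library, and each group held 10 mice; the labels do not say how the mice were pooled. The WT-naive library came from wild-type mice with no treatment. The WT-CFC library came from wild-type mice 14 days after contextual fear conditioning, in which a chamber is paired with foot shock. The KO-CFC library came from mice labelled as Csf2rb2 knockouts in the title and as Csf2rb3-KO in the genotype field, also 14 days after that training. Nuclei were isolated from frozen tissue and sequenced with a droplet 3′ chemistry. The labels used here give no age or allele design for these mice. Values for the 3 libraries follow one order throughout: WT-naive, WT-CFC, then the one labelled KO-CFC.

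With 1 library per group there is no replicate spread to set a difference against, and no p-value is given anywhere. All intervals are 95% intervals for counting error only; they leave out the variation between nuclei, mice and library preparations. The Lhx6 nuclei held 1245672, 1009496 and 435708 UMIs. Median depths were 9140, 11350 and 7758 UMIs per nucleus, with 3528, 4095 and 3512 genes detected. The targeted gene did not check the label in these cells, since Csf2rb2 gave 1, 1 and 0 UMIs, so the third group is called the library labelled KO-CFC. Between 25 and 32 barcode sequences recurred in each pair of nuclei libraries, and none of them was a Lhx6 nucleus. Igkc, an immunoglobulin light chain made by B cells, gave 151.5 CPM (the gene's UMIs over all UMIs summed for the nuclei of a library, on the counts-per-million scale) in the Lhx6 nuclei of the library labelled KO-CFC and 0 UMIs in those of both wild-type libraries.

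Lhx6 nuclei made up a smaller share of the library labelled KO-CFC than of WT-naive. There were 117 in WT-naive, which was 1.30% of its 9007 retained barcodes (exact binomial interval 1.08 to 1.55%). WT-CFC held 83, or 0.9995% of 8304 (0.797 to 1.24%), and the library labelled KO-CFC held 49, or 0.722% of 6785 (0.535 to 0.954%). The intervals of WT-naive and the library labelled KO-CFC did not overlap, and the WT-CFC interval overlapped both. As a share of GABAergic barcodes (Gad1 plus Gad2 at least 2 UMIs, Slc17a7 at most 1), they were 14.9%, 11.7% and 9.55%. The Sst interneurons, set by at least 3 Sst UMIs in the same GABAergic pool, numbered 117, 161 and 52, or 1.30%, 1.94% and 0.766% of retained barcodes. Other classes serve for comparison below. Adarb2 interneurons are GABAergic barcodes with at least 3 Adarb2 UMIs, no Lhx6 UMI and at most 2 Sst UMIs, and granule neurons have at least 2 UMIs of Slc17a7, at least 1 of Prox1 and at most 1 of Gad1 plus Gad2. Before the Sst limit was applied, 161, 140 and 59 GABAergic nuclei carried Lhx6. Whether a nucleus meets a limit of 1 Lhx6 UMI also depends on depth, and GABAergic barcodes had medians of 7757, 8775 and 6188 UMIs. Fewer nuclei of a type, less Lhx6 RNA per nucleus and lower depth cannot be told apart in such counts.

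Most members lay next to a limit of the rule. Lhx6 was read once in 197 of the 249 and at least 3 times in only 13, while 1429 otherwise eligible GABAergic nuclei had no Lhx6 UMI. Sst gave 0 UMIs in 179 nuclei, 1 in 42 and 2 in 28, and 13 nuclei that met the other limits had exactly 3. Slc17a7, the vesicular glutamate transporter of excitatory neurons, gave 1 UMI in 67 members, and 19 nuclei fell outside with 2. When every barcode was first thinned to 1000 UMIs, only 0.0444%, 0% and 0.0295% of retained barcodes met the rule, so few members stayed at that depth.

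Interneuron genes, also those outside the rule, were read in all 3 libraries. Gad1 stood at 252, 384 and 280 CPM and Gad2 at 367, 450 and 358 CPM. Both were used by the rule. Slc32a1, the vesicular GABA transporter, was not, and stood at 85.1, 147 and 133 CPM. Nxph1, which encodes the neurexin ligand neurexophilin-1 and marks MGE interneurons, stood at 1884, 2423 and 1352 CPM, and Erbb4, the neuregulin receptor of these cells, at 4658, 5587 and 3631 CPM. Lhx6 itself, which the rule also used, stood at 120, 109 and 140 CPM. Sox6 and Satb1, transcription factors downstream of Lhx6, stood at 45.8, 39.6 and 36.7 CPM and at 34.5, 18.8 and 43.6 CPM.

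Parvalbumin RNA was scarce, and most members had no Pvalb UMI. Pvalb was seen in 16 of 117, 12 of 83 and 6 of 49 nuclei, at 19.3, 15.8 and 23.0 CPM. Granule neurons, which should lack it, showed a Pvalb UMI in 2.21%, 0.712% and 5.48% of nuclei at median depths of 8266, 8898 and 8130 UMIs. After thinning to 1000 UMIs, Pvalb remained in 4.27%, 1.20% and 2.04% of Lhx6 nuclei. Lamp5, a marker of neurogliaform and ivy cells, was seen in 33.3%, 48.2% and 22.4% of the nuclei before thinning and in 7.69%, 9.64% and 2.04% after it. Granule neurons showed Lamp5 in 9.58%, 16.7% and 7.95% of nuclei before thinning. Sst, limited by the rule, was seen in 32.5%, 19.3% and 32.7% of Lhx6 nuclei and in 18.9%, 15.8% and 16.2% of granule neurons.

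Clustering split the 249 nuclei into 7 groups, which matched 4 interneuron types by their markers and 1 group of mixed RNA. Clusters were built on all variable genes with each gene centred within its library, so the differences between clusters describe the nuclei and are no test. Lower resolution gave 6 clusters, and clustering without centring gave 8. Names were given by hand, and every named cluster held at least 3 markers of its type at 2-fold or more over the other members. That number did not decide the name alone, since other lists reached it too. Cluster 4 held 3 somatostatin markers (Npy, Cort and Crhbp) and cluster 2 held 3 of oligodendrocyte precursors. Cluster 7 held 5 parvalbumin basket markers against 3 axo-axonic ones. The mixed group, cluster 5, held 5 markers of Adarb2 interneurons. The 10 leading genes of clusters 1, 3, 6 and 7 held no marker of their own type, while those of cluster 1 held 1 marker of projecting cells (Tacr1) and 1 of oligodendrocyte precursors (Vcan), and those of cluster 3 held 1 of CA pyramidal neurons (Man1a). Sizes are given as counts, not as a result between libraries.

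**Figure D1:**
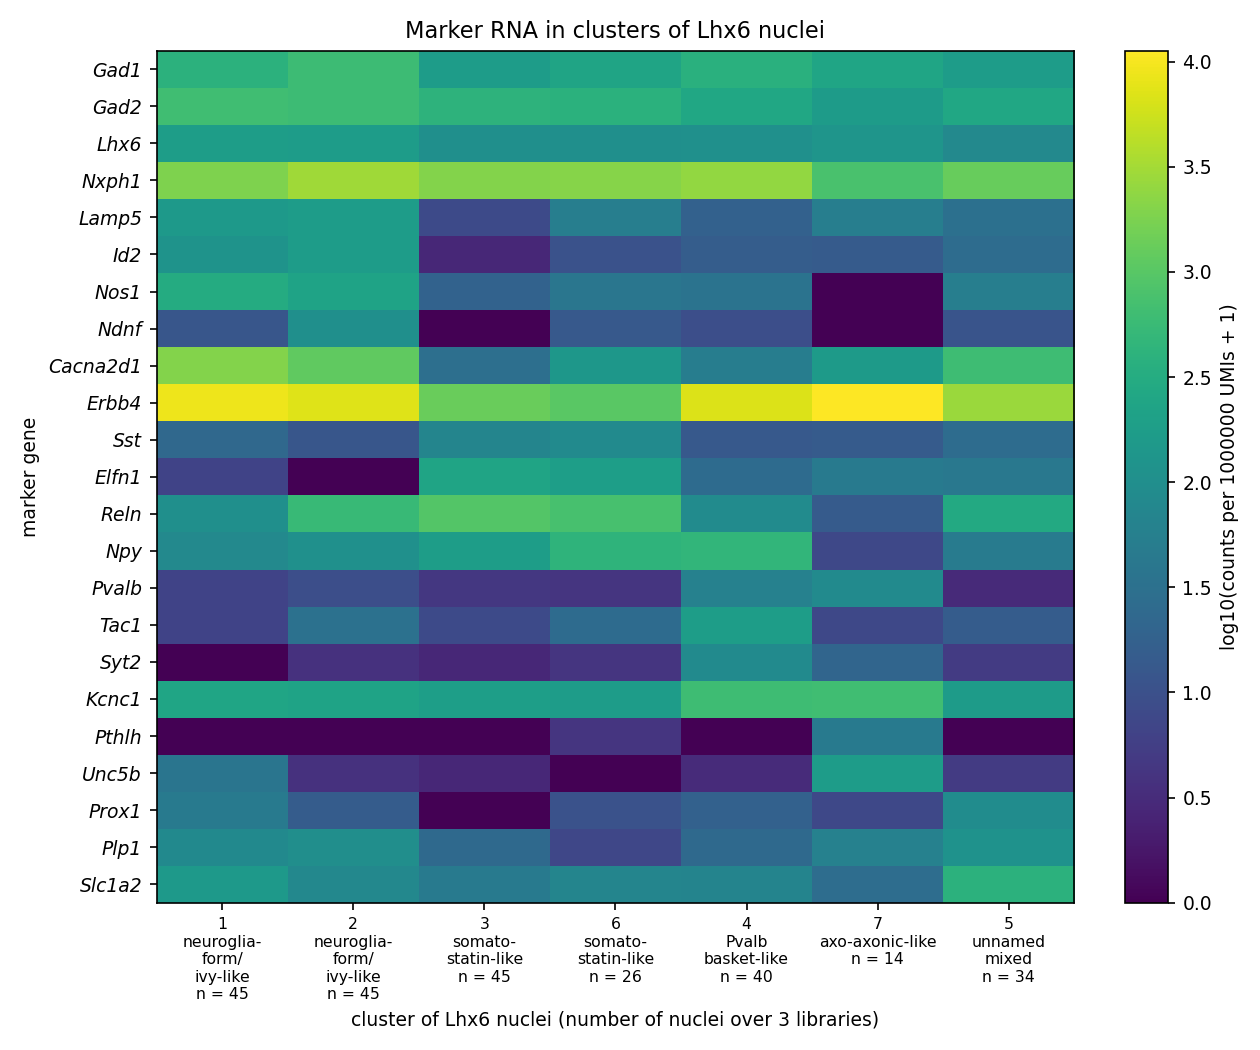
Marker RNA in the 7 clusters of Lhx6 nuclei. Columns are clusters with their type name and number of nuclei over the 3 libraries, rows are marker genes, and colour is log10 of CPM plus 1; Lamp5 and Cacna2d1 are brightest in clusters 1 and 2, Elfn1 and Reln in clusters 3 and 6, Tac1 and Syt2 in cluster 4, and Unc5b and Pthlh in cluster 7.

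The most frequent kind was neurogliaform or ivy-like, with 90 nuclei (36.1%) in clusters 1 and 2. Over the 3 libraries pooled, these nuclei held Lamp5 at 158 CPM against 17.0 to 53.3 CPM in the other 4 kinds. Nos1, the neuronal nitric oxide synthase of ivy cells, stood at 264 CPM and at 0 to 52.9 CPM elsewhere. Id2, an inhibitor of basic helix-loop-helix factors, stood at 146 CPM against 4.58 to 26.5 CPM. Cacna2d1, the calcium channel subunit that binds gabapentin, stood at 1578 CPM, and Hcrtr2, the second orexin receptor, at 243 CPM with at most 57.0 CPM in any other kind. Adra1a, the alpha-1A adrenergic receptor, stood at 298 CPM against 0 to 63.1 CPM. Gabrg3, a GABA-A receptor subunit gene, stood at 4281 CPM against 410 to 3129 CPM. Cluster 1 was led by Tacr1, the substance P receptor (175 CPM against 8.56 CPM in the other members), Sorcs1 and Pde11a. Cluster 2 was led by Ndnf, which marks neurogliaform cells of the outer layers (102 against 7.27 CPM), Id2 and Pnoc, the nociceptin precursor. Tacr1 is also a marker of projecting cells with nitric oxide synthase, but their defining gene Chodl had 0 UMIs in the Lhx6 nuclei of all 3 libraries.

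Somatostatin-like nuclei remained although the rule limited Sst. Clusters 3 and 6 held 71 nuclei (28.5%), and 43 of these 71 had at least 1 Sst UMI. Sst stood at 74.5 CPM in them and at 12.8 to 26.5 CPM in the other kinds. Elfn1, a postsynaptic organiser of facilitating inputs, stood at 217 CPM against 2.83 to 46.6 CPM. Reln, the extracellular matrix protein reelin, stood at 856 CPM against 13.3 to 314 CPM. Npas3, Grik3 and Cacna2d3 were also highest in this kind, at 856, 308 and 2099 CPM. Cluster 3 was led by Rtkn2, Ptger3 and Man1a, the last of which is on the CA pyramidal list, and cluster 6 by Grm8, Pcdh7 and Kcnh5. By Sst reads, the description of the population as being without somatostatin therefore held for 179 of 249 members, and 42 had 1 UMI and 28 had 2. It did not hold for the make-up of the population.

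Parvalbumin basket-like nuclei numbered 40 (16.1%), all in cluster 4. They held Pvalb at 59.6 CPM, seen in 17 of 40 nuclei. Tac1, the substance P precursor, stood at 177 CPM against 6.66 to 18.4 CPM in the other kinds. Syt2, the fast synaptotagmin of basket cell terminals, stood at 87.3 CPM against 1.41 to 20.0 CPM. Oprd1, the delta opioid receptor, stood at 117 CPM, against 46.6 CPM in axo-axonic-like nuclei and 1.41 CPM in neurogliaform or ivy-like ones. Il1rapl2, a synaptic adhesion protein of the interleukin 1 receptor family, stood at 2364 CPM with at most 418 CPM elsewhere. Cort, the cortistatin gene, was among the leading genes too, at 85.2 CPM, and belongs to the somatostatin list.

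Axo-axonic-like nuclei were few, 14 (5.62%), in cluster 7. They held Pvalb at 86.6 CPM in 8 of 14 nuclei, Unc5b, a netrin receptor, at 173 CPM in 12 of 14, and Pthlh, parathyroid hormone-like hormone, at 46.6 CPM in 6 of 14. The cluster also held 5 parvalbumin basket markers at 2-fold or more, including Pvalb and Kcnc1. Its leading genes were Cntnap5b at 2184 CPM against 52.7 CPM in the other members, Nxph2 and Pde5a. Kcnc1, which encodes the Kv3.1 potassium channel of fast-spiking cells, stood at 652 CPM here and 618 CPM in basket-like nuclei, against 169 to 229 CPM in the other kinds. Erbb4 was highest here at 11266 CPM and lowest in somatostatin-like nuclei at 1226 CPM. Grin3a, Nos1 and Adra1a had 0 UMIs in these 14 nuclei.

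The remaining 34 nuclei (13.7%), cluster 5, stayed unnamed because they carried RNA of other cells. Leading genes were Kcnip4, Tafa1 and Ptprk, and 6 of 10 granule neuron markers, 9 of 10 astrocyte markers and 8 of 8 oligodendrocyte markers stood at 2-fold or more over the other members. Slc1a2, the astrocyte glutamate transporter, stood at 397 CPM against 26.6 to 113 CPM in the 4 named kinds. A doublet score placed 18 of the 34 (52.9%) among the highest-scoring 8% of all retained barcodes of their library, against 0 to 3 nuclei in each of the other clusters. Cluster 5 gave 10 of 117 members in WT-naive, 12 of 83 in WT-CFC and 12 of 49 in the library labelled KO-CFC. Doublet calls among the members were 8 (6.84%), 7 (8.43%) and 9 (18.4%).

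RNA of other cells was present, and oligodendrocyte and microglia RNA was highest in the library labelled KO-CFC. The 8 oligodendrocyte markers summed to 132, 82.2 and 585 CPM in Lhx6 nuclei of the 3 libraries, with none at 0, against 367, 435 and 527 CPM in granule neurons. The 8 microglia markers summed to 74.7, 76.3 and 225 CPM, with Tmem119 at 0 in the 2 wild-type libraries. The 10 astrocyte markers summed to 321, 415 and 358 CPM, with Aqp4 at 0 in 2 of the 3 libraries and Gfap at 0 in WT-naive. The 10 granule neuron markers summed to 461, 436 and 546 CPM, against 1969 to 2234 CPM in granule neurons. The 12 markers of Adarb2 interneurons, the other large interneuron lineage, summed to 355, 623 and 734 CPM. In the library labelled KO-CFC, the UMIs of Adarb2 itself lay mostly in the unnamed mixed cluster, as described below. Over the 3 libraries pooled, Adarb2 was not confined to that cluster. It stood at 796 CPM in cluster 5, and at 511 and 221 CPM in the neurogliaform or ivy-like clusters 1 and 2. In cluster 1, 62.2% of nuclei had an Adarb2 UMI. Cajal-Retzius cells, which share Reln and Ndnf, were not seen by their defining genes, since Trp73, Lhx1 and Lhx5 had 0 UMIs in all 3 libraries.

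Across nuclei, the genes closest to Pvalb and to Lamp5 differed. Over 248 Lhx6 nuclei with at least 2000 UMIs, among genes seen in at least 10% of the nuclei, the genes with the highest Pearson correlation to Pvalb included Gpr176 (0.46), Tll1 (0.39), Plcxd3 (0.39) and Inpp4b (0.36). The 5 closest to Lamp5 were Hcrtr2 (0.52), Cacna2d1 (0.50), Slc2a13 (0.49), Hdac9 (0.48) and Adra1a (0.48). These are descriptions over log values of nuclei that share 3 libraries and unequal depths.

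The first comparison asks how Lhx6 nuclei stood 14 days after contextual fear conditioning in wild-type mice, WT-CFC (83 nuclei) against WT-naive (117). Neuropeptide Y had the highest ratio of the genes named by the rule, which leaves out mitochondrial genes. Genes of GABA synthesis and GABA receptors were on the higher side, and metabotropic glutamate receptor genes and the protocadherin gene Pcdh7 on the lower side. Of 1810 genes with at least 200 UMIs over both libraries, 68 (3.76%) were at least 1.5-fold higher in WT-CFC and 59 (3.26%) at least 1.5-fold lower, together 7.02%. The genes named below come from the 5.25% that also passed the naming rule, which asks for a counting interval off 0. The median log2 ratio of all 1810 was 0.04, and 1038 of them were above 0. Counts of higher genes in the lists of this comparison are to be read against that share. Ratios are log2 of CPM in the first library over the second with 0.5 counts added, and they compare 2 libraries. Of the genes that define the population, Lhx6 was at −0.13, Nxph1 at 0.36, Pvalb at −0.27 on 16 and 24 UMIs, and Sst, held down by the rule, at −1.04.

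Npy, a peptide co-released with GABA, stood at 102.8, 350.7 and 151.5 CPM. WT-CFC was the highest library by CPM, but not by the share of nuclei with an Npy UMI after thinning, given below. The log2 ratio of WT-CFC to WT-naive was 1.77 (interval 1.48 to 2.07). Npy RNA was seen in 54 of 117 nuclei in WT-naive and 47 of 83 in WT-CFC, and 20.3% of the WT-CFC counts came from 1 nucleus, without which, and without the top nucleus of WT-naive, the ratio was 1.70. In members with a mitochondrial share of at most 1% it was 0.86. It was higher in 5 of the 6 clusters with at least 10 counts. The difference was greatest in the basket-like cluster 4, at 118 against 830 CPM (19 and 187 UMIs), and in cluster 6, at 161 against 933 CPM (31 and 92 UMIs). In cluster 5 it was lower, 64.3 against 25.3 CPM on 9 and 5 UMIs. The same ratio was 1.26 in Sst interneurons, 1.34 in Adarb2 interneurons, −0.57 in granule neurons and 0.65 over all other barcodes of the 2 libraries. After thinning to 1000 UMIs, 4.27%, 16.9% and 18.4% of the Lhx6 nuclei carried an Npy UMI.

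Dab1, the intracellular adaptor of reelin receptors, stood at 579 CPM in WT-naive and 1190 CPM in WT-CFC, a log2 ratio of 1.04 (0.91 to 1.17), against 0.35 in Sst and 0.24 in Adarb2 interneurons. With each of the 5 kinds given the same weight in both libraries, it was 0.65. Sorcs3, a sorting receptor of neurogliaform or ivy-like nuclei, stood at 75.5 and 157.5 CPM (1.06, 0.68 to 1.45). It was higher in WT-CFC in both cluster 1 (250 and 336 CPM) and cluster 2 (205 and 420 CPM). Ndst3, an enzyme of heparan sulfate synthesis, stood at 109 and 219 CPM (1.002), while Sst interneurons gave −0.33, and its ratio was 0.092 after thinning to 1000 UMIs. Adra1a stood at 85.9 and 153.5 CPM (0.84), while Sst interneurons gave −0.30. Sema5a, a guidance semaphorin, had a ratio of 1.03, which was 0.56 without cluster 5 and 0.06 after thinning to 1000 UMIs. Acp1, Pcsk1n (the proSAAS precursor), Calr (an endoplasmic reticulum chaperone), Ywhah, Calm2 and Cemip completed the 12 highest, between 0.83 and 1.01. Acp1 was as high elsewhere, at 1.65 in Sst interneurons, 0.99 in Adarb2 interneurons and 0.89 in granule neurons.

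Among the lower genes, Pcdh7, a protocadherin, stood out at 819.6 CPM in WT-naive against 255.6 CPM in WT-CFC, a log2 ratio of −1.68 (−1.88 to −1.48). It was lower in all 7 clusters, and −0.25 in Sst interneurons and 0.24 in Adarb2 interneurons. Most of its RNA lay in cluster 6, where it stood at 3283, 537.5 and 3956 CPM from 16, 7 and 3 nuclei. Car10, a carbonic anhydrase-related ligand of neurexins, had the same order there, at 1200, 243 and 1263 CPM, and a ratio of −1.26 over all members. Nrg1, the neuregulin ligand of Erbb4, stood at 680, 60.85 and 210.4 CPM in cluster 6 and at a ratio of −1.29 over all members, with 3 readable clusters higher and 3 lower. The cluster 6 nuclei of WT-CFC differed in other genes as well, with Rgs6 at 974 CPM against 156 CPM in WT-naive, Gabrg3 at 2221 against 249 CPM and Sst at 10.1 against 119 CPM. Whether cluster 6 held the same kind of nucleus in each library was not tested. With members limited to 0 Sst UMIs, the ratio of Pcdh7 was −0.72, that of Car10 −0.55 and that of Nrg1 −0.25.

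Tmeff2, Bc1 and Cntn6 were lower in every cluster that could be read, and each of the other genes of this group was higher in at least 1. Tmeff2, a transmembrane protein with follistatin domains, stood at 1479 and 818 CPM (−0.85, −0.97 to −0.73) and was lower in all 7 clusters. Bc1, a small neuronal noncoding RNA, stood at 276 and 115 CPM (−1.26) and was lower in all 7 clusters. It was lower in the other barcodes too, at −0.97. Cntn6, a contactin, stood at 220 and 122 CPM (−0.85), lower in the 6 clusters that could be read, and its ratio was −0.18 in members with 0 Sst UMIs. Zfp804a, a zinc finger gene whose RNA was concentrated in axo-axonic-like and basket-like nuclei, stood at 485 and 260 CPM (−0.90, −1.12 to −0.69). In cluster 7, the axo-axonic-like nuclei, it was at 3644, 908 and 488 CPM from 8, 3 and 3 nuclei. In cluster 4, the basket-like nuclei, it was at 1247, 479.5 and 1118 CPM. It was lower in WT-CFC in 3 of 7 clusters and higher in the other 4. Syndig1 and Cacng3, which encode partners of AMPA receptors, had ratios of −1.14 and −0.94; with the 5 kinds at equal mix these were −0.58 and −0.40. Pcdh11x, Slc38a2 and Ptprr completed the 12 lowest, between −0.998 and −0.91; Pcdh11x was higher in 2 of 5 readable clusters and Ptprr in 2 of 6.

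**Figure D2:**
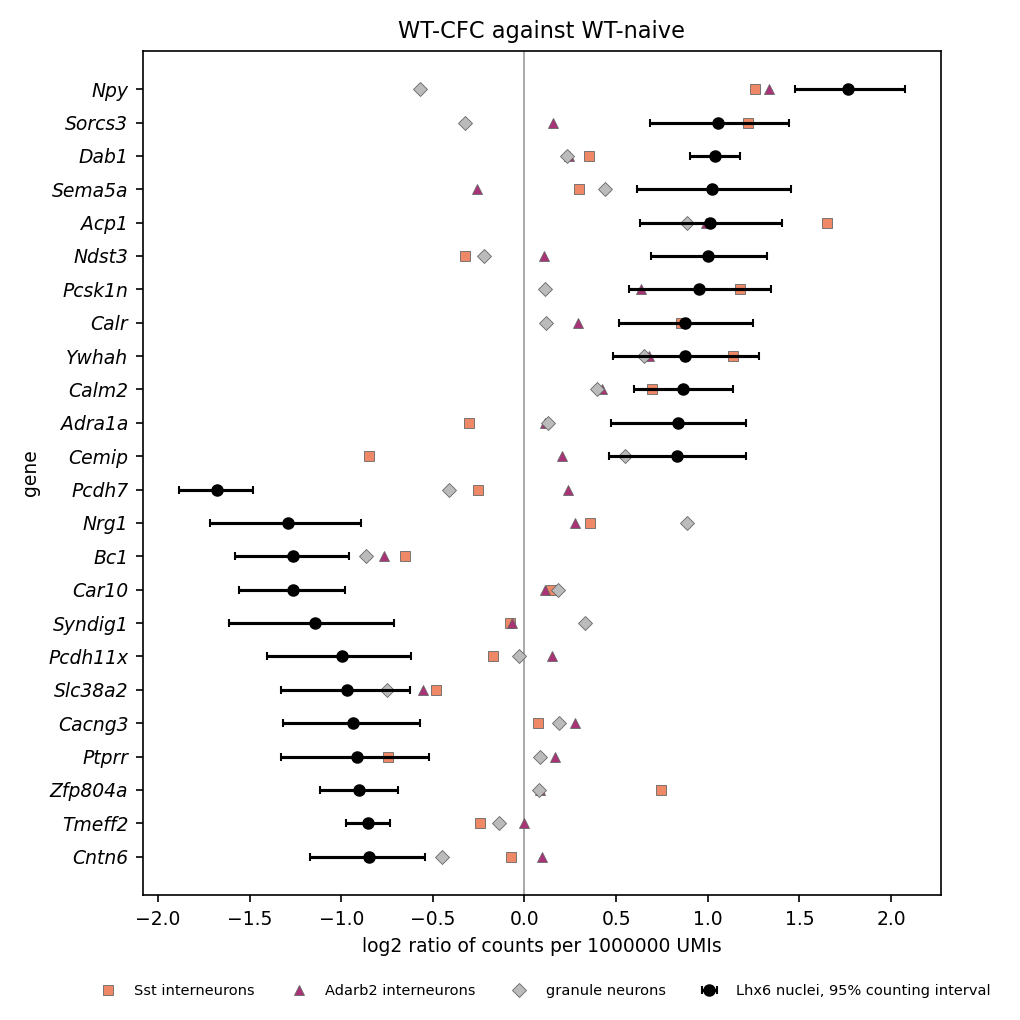
Log2 ratio of CPM in WT-CFC over WT-naive for the 12 highest and 12 lowest named genes. Black points with bars are Lhx6 nuclei with 95% counting intervals, squares Sst interneurons, triangles Adarb2 interneurons and diamonds granule neurons, 1 library per group; Npy lies at 1.77 in Lhx6 nuclei, 1.26 in Sst and 1.34 in Adarb2 interneurons, and Pcdh7 lies at −1.68 in Lhx6 nuclei and between −0.41 and 0.24 in the other 3 classes.

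By function, the genes of GABA synthesis and transport stood higher in WT-CFC. All 7 measured of 10 listed were higher, 3 of them past 1.5-fold, with a median of 0.29 beside 0.04 for all genes. The median was 0.0855 in members with a mitochondrial share of at most 1% and 0.131 with nuclei weighted equally. Slc32a1 had a ratio of 0.78 (0.42 to 1.16), Slc12a5, the chloride exporter that makes GABA inhibitory, 0.62 (0.30 to 0.95), and Gad1 0.61 (0.39 to 0.83). Slc12a5 was also higher in Sst interneurons (0.63), Adarb2 interneurons (0.56) and granule neurons (0.47), whereas Gad1 was at 0.17, 0.12 and 0.13 there. Gad1 and Gad2 were part of the rule, and the Gad1 ratio passed 1.5-fold in 7 of 16 alternatives and was 0.175 at a mitochondrial share of at most 1%. All 10 measured GABA receptor genes of 16 listed were higher, with a median of 0.35, and Gabrb1 (0.66), Gabrg3 (0.61) and Gabbr1 (0.59) passed 1.5-fold. Sst interneurons gave a median of 0.26 for the same genes and granule neurons 0.14. Heat shock and chaperone genes were higher for 5 of 5 measured, with a median of 0.46 and none past 1.5-fold, and Sst interneurons gave 0.50.

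Glutamate receptor genes divided by class. All 4 measured metabotropic receptor genes were lower in WT-CFC, with a median of −0.66. Grm8, a presynaptic group III receptor, stood at 411 and 230 CPM (−0.84, −1.07 to −0.61), and Grm7, of the same group, at 557 and 330 CPM (−0.75, −0.95 to −0.57). Grm5, a postsynaptic group I receptor, was lower by less than 1.5-fold (−0.30). The medians for the list were −0.18 in Sst interneurons, −0.23 in Adarb2 interneurons and 0.02 in granule neurons. Grm7 and Grm8 were more abundant in somatostatin-like than in neurogliaform or basket-like nuclei, and clusters 3 and 6 held 40 of 117 nuclei in WT-naive and 18 of 83 in WT-CFC. With the 5 kinds at equal mix the median was −0.28. AMPA and kainate receptor genes were lower for 9 of 12 measured, with a median of −0.23. Cacng3 and the kainate subunit gene Grik3 (−0.78) passed 1.5-fold. Grik3 was also most abundant in somatostatin-like nuclei, and the part of the mix of kinds in its ratio was not tested. The 4 measured NMDA receptor genes were on the higher side, from 0.03 for Grin1 to 0.39 for Grin2a, and none passed 1.5-fold.

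Ion channel, adhesion and transcription factor lists had medians between −0.18 and 0.26. Potassium channel genes were higher for 13 of 19 measured with a median of 0.26, and Kcnh1, an ether-a-go-go channel, was the one past 1.5-fold (89.1 and 152.6 CPM, 0.77). Sodium, calcium and HCN channel genes were higher for 10 of 14 with a median of 0.14, and Cacna2d3 was lower (1117 and 684 CPM, −0.71, −0.84 to −0.58). Cacna2d3 was most abundant in somatostatin-like nuclei, which were 40 of 117 members in WT-naive and 18 of 83 in WT-CFC. Synaptic adhesion and neuregulin genes were higher for 13 and lower for 9 of 22, with a median of 0.05. Il1rapl2 (0.81) and Clstn2, a calsyntenin (0.67), were past 1.5-fold on the higher side and Nrg1 and Nrxn3 (−0.63) on the lower side. Il1rapl2 RNA was concentrated in basket-like nuclei, which were 14 of 117 members in WT-naive and 18 of 83 in WT-CFC. The part of that mix in its ratio was not tested. On the list of MGE and interneuron transcription factors, 5 of 6 measured were lower, with a median of −0.18. Lhx6, which the rule used, was among the lower ones. Npas3 passed 1.5-fold (511 and 294 CPM, −0.80). Like Cacna2d3, Npas3 was most abundant in somatostatin-like nuclei, and the part of the mix of kinds in both ratios was not tested. The 3 measured glucocorticoid response genes were higher, with Nr3c2, the mineralocorticoid receptor, at 0.57, and none past 1.5-fold. Vesicle release genes were higher for 7 of 8, with a median of 0.11 and with Cplx1, complexin 1, past 1.5-fold (0.63). Respiratory chain genes of the nucleus were higher for 5 of 6 with a median of 0.19 and none past 1.5-fold.

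Mitochondrially encoded RNA gave the single greatest ratio of any list, in every class of barcode. mt-Nd3 stood at 21.7, 182.3 and 50.5 CPM, a WT-CFC to WT-naive ratio of 3.05 in Lhx6 nuclei, 2.43 in Sst interneurons, 2.44 in Adarb2 interneurons and 2.53 in granule neurons. mt-Co2 was on the lower side at −0.98 in Lhx6 nuclei and −1.21 in granule neurons. The list median of 0.41 was −0.32 when members were limited to a mitochondrial share of at most 1%. These RNAs lie outside the nucleus, and their part in the other ratios was not tested.

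**Figure D3:**
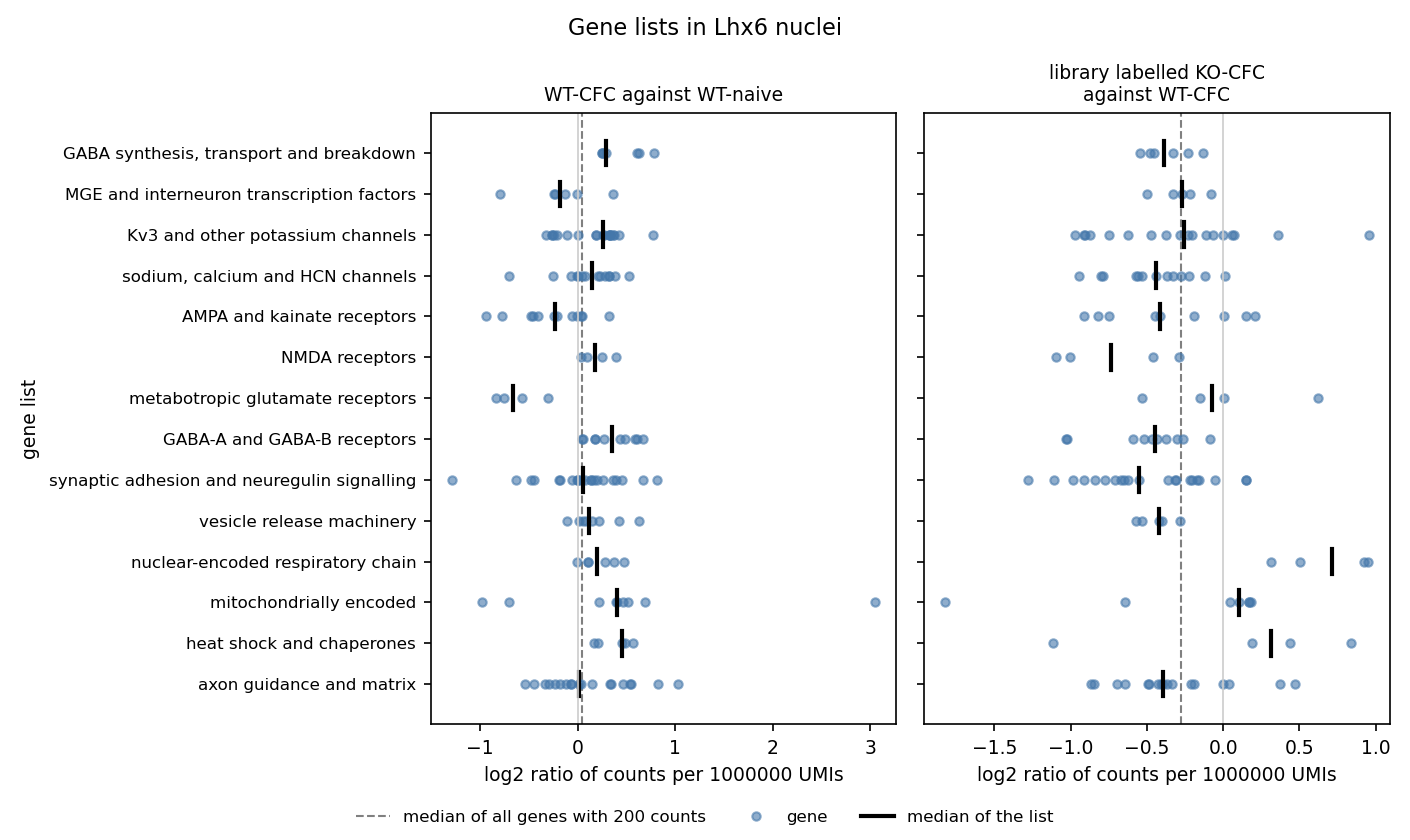
Log2 ratios of the measured genes of 14 functional lists in Lhx6 nuclei, WT-CFC over WT-naive on the left and the library labelled KO-CFC over WT-CFC on the right, on axes of different range. Each point is a gene, the black bar is the list's median, and the dashed line is the median of all genes with at least 200 counts, 0.04 on the left and −0.27 on the right; both panels use the WT-CFC library.

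The second comparison asks how Lhx6 nuclei of the library labelled KO-CFC (49 nuclei) stood against WT-CFC (83 nuclei), both after training. Abundant housekeeping RNAs such as ferritin, ubiquitin and respiratory chain transcripts stood higher, and genes of synaptic adhesion, NMDA receptors and GABA receptors stood lower. Of 1025 genes with at least 200 UMIs, 68 (6.63%) were at least 1.5-fold higher and 222 (21.7%) at least 1.5-fold lower, together 28.3%, and 24.8% passed the naming rule. The median ratio of all genes was −0.27, and 757 of the 1025 were below 0, and counts of lower genes below are to be read against that share. With ratios centred on that median, 123 were higher and 83 lower, and factors by trimmed mean of M-values (TMM) gave 123 and 83 as well. Ratios below are uncentred and are to be read against −0.27. Nxph1 was at −0.84 and Pvalb at 0.56 on 10 and 16 UMIs. Lhx6 was at 0.37, higher in all 7 clusters but at −0.17 after thinning to 1000 UMIs, and Sst was at 1.34. The rule asks for at least 1 Lhx6 UMI and at most 2 Sst UMIs, and 197 of the 249 members held exactly 1 Lhx6 UMI. Lhx6 CPM therefore moves with depth, which had medians of 7758 UMIs here and 11350 in WT-CFC. The Lhx6 and Sst ratios cannot be read apart from the rule.

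Fth1, the ferritin heavy chain, stood at 163, 232.8 and 745.9 CPM, a ratio of 1.68 to WT-CFC (1.43 to 1.93). It was higher in all 7 clusters, and 1.15 without the nucleus with most Fth1 in each library. In members with at most 5 glial marker UMIs it was 0.65. Ubb, a polyubiquitin gene, stood at 74.7, 118.9 and 332.8 CPM (1.48), and Pcsk1n at 74.7, 144.6 and 413.1 CPM (1.51, 1.19 to 1.84). Eef1a1, a translation elongation factor, Slc25a4, the mitochondrial ADP/ATP carrier, Itm2b, and Ckb, brain creatine kinase, had ratios from 1.15 to 1.24. These genes were also higher outside the Lhx6 nuclei, with Fth1 at 1.34, Ubb at 1.58 and Pcsk1n at 1.57 over all other barcodes. The oligodendrocyte and microglia sums, given above, were higher in the same library and the astrocyte sum was not, and their part in the result was not tested. Nrg3os, an RNA opposite Nrg3, was at 241 and 503 CPM (1.06, 0.79 to 1.33) and at 0.02 in granule neurons, although reads of an antisense gene and its partner may not be separable because the strand setting is not given. Acp1, Slc24a5, P2ry14 and Nap1l5 completed the 12 highest, between 1.05 and 1.32.

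Several of the lower genes stood nearer 0, or above it, in other classes. Eya4, a transcriptional coactivator on the neurogliaform list, stood at 202.3, 282.3 and 82.6 CPM, a ratio of −1.76 (−2.32 to −1.27). It was −0.73 in Sst interneurons, 0.21 in Adarb2 interneurons and 0.51 in granule neurons. Rgs6, a regulator of G protein signalling, stood at 531 CPM in WT-CFC and 185.9 CPM (−1.51, −1.87 to −1.17), with 0.03 in Adarb2 interneurons and 0.28 in granule neurons. Slc44a5, a choline transporter-like gene, stood at 491.3 and 179 CPM (−1.45, −1.82 to −1.11) and was lower in all 7 clusters, while Sst interneurons gave 0.35. Pknox2, a homeobox gene, stood at 339.8 and 101 CPM (−1.74). Pde10a, a cyclic nucleotide phosphodiesterase, stood at 1193 and 374.1 CPM (−1.67, −1.92 to −1.44). Both were lower in all 7 clusters, and by less in the other classes, at −0.64 and −0.60 in granule neurons.

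Cmss1 was the lowest of the named genes and was low in every class. It stood at 2086 CPM in WT-CFC and 566.9 CPM in the library labelled KO-CFC (−1.88, −2.08 to −1.69), and at −1.76 over all other barcodes. Npy, highest in WT-CFC by CPM, stood at 151.5 CPM, a ratio of −1.20 (−1.61 to −0.83). It was lower in 4 and higher in 2 of the 6 clusters with at least 10 counts. The ratio was −0.02 in Sst interneurons, −0.89 in Adarb2 interneurons and 1.10 in granule neurons. After thinning to 1000 UMIs the Npy ratio was 0.07, and in members with at most 5 glial marker UMIs it was −0.37, so the value moved with depth and with which nuclei were kept. Lin7a, a synaptic scaffold protein, Tmem132d and Galnt14 were lower in Lhx6 nuclei and Sst interneurons alike and between 0.06 and 0.18 in granule neurons; Lin7a was at −0.29 after thinning and Tmem132d at −0.42 in members with at least 2 Lhx6 UMIs.

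**Figure D4:**
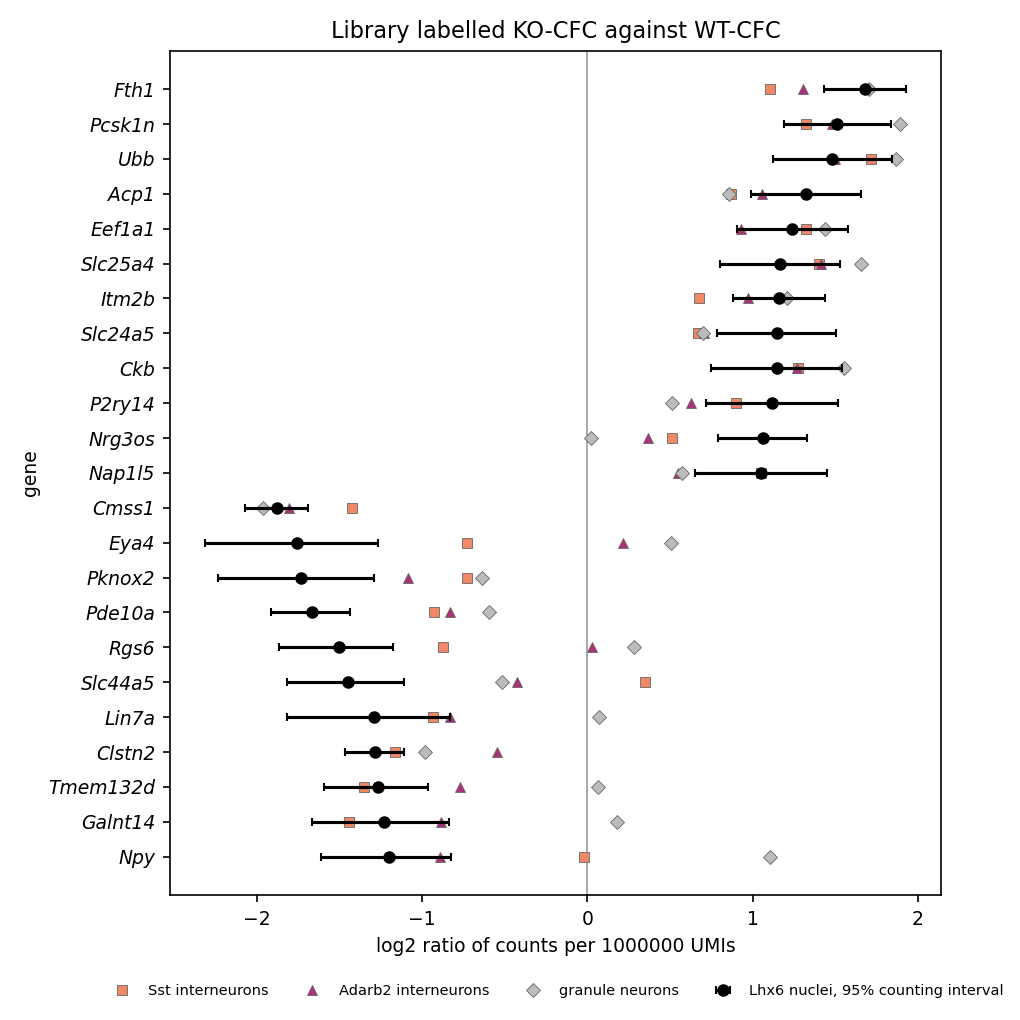
Log2 ratio of CPM in the library labelled KO-CFC over WT-CFC for named genes, the higher ones above and the lower ones below, with the same symbols and intervals for Lhx6 nuclei, Sst interneurons, Adarb2 interneurons and granule neurons. Fth1, Pcsk1n and Ubb lie above 1 in all 4 classes, and Eya4, Rgs6 and Slc44a5 lie near or below −1.5 in Lhx6 nuclei and above 0 in at least 1 other class.

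Synaptic adhesion and neuregulin genes were lower for 19 of 21 measured, 10 of them past 1.5-fold, with a median of −0.55 beside −0.27 for all genes. Clstn2 stood at 1078, 1712 and 702.3 CPM (−1.28, −1.47 to −1.11). Lrrtm4, a leucine-rich repeat organiser of excitatory synapses, stood at 4703, 6194 and 2867 CPM (−1.11, −1.20 to −1.02), while Sst interneurons gave −0.21 and Adarb2 interneurons −0.31. Cntnap4, a neurexin-family protein of interneurons, stood at 696, 953 and 480 CPM (−0.99), and Sst interneurons gave 0.16. Ptprt stood at 2616, 2629 and 1395 CPM (−0.91). WT-CFC was the highest of the 3 libraries for each of these genes. The other 15 of the 19 were lower by smaller amounts, and the medians of the list were −0.28 in Sst interneurons, −0.31 in Adarb2 interneurons and −0.46 in granule neurons.

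The 4 measured NMDA receptor genes were lower, with a median of −0.73. Grin3a stood at 237, 281 and 131 CPM (−1.09, −1.54 to −0.69), and Grin2a at 1829, 2404 and 1198 CPM (−1.004, −1.14 to −0.87). Sst interneurons gave −0.03 and −0.28 for these genes and granule neurons −0.55 and −0.57. All 10 measured GABA receptor genes were lower, with a median of −0.45, and Gabbr2 (−1.03), the GABA-B subunit that couples to G proteins, and Gabrg3 (−1.02) led the 3 past 1.5-fold. All 6 measured GABA synthesis and transport genes were lower, with a median of −0.39 and none past 1.5-fold. Centred on the median of all genes, the potassium channel median of −0.26 became 0.02 and the transcription factor median of −0.27 became 0.000755.

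AMPA and kainate receptor genes were lower for 6 of 9 measured, near the share of all genes, with a median of −0.41, led by Gria1 (7581, 6549 and 3479 CPM, −0.91, −0.99 to −0.83), an AMPA receptor subunit gene, which was −1.04 in granule neurons. Sodium, calcium and HCN channel genes were lower for 12 of 13 with a median of −0.44, and Cacna1a, the P/Q-type channel of release sites, was at −0.94 in Lhx6 nuclei against −0.26 in Sst interneurons. Among potassium channels, Kcnip1, Kcnh7 and Kcnn2 were lower (−0.97, −0.91 and −0.91), and Kcnq5, an M-current channel, was the exception past 1.5-fold on the higher side (254 and 491 CPM, 0.95, 0.68 to 1.22), with 31.6% and 23.4% of its counts in 1 nucleus of each library. Grm7 was also higher, at 330 and 507 CPM (0.62, 0.37 to 0.87), whereas granule neurons gave −0.40. The 4 measured respiratory chain genes of the nucleus were higher with a median of 0.71, from 0.31 for Cox7c to 0.95 for Cox4i1, and granule neurons gave a median of 1.19. Hspa5, the endoplasmic reticulum chaperone BiP, was lower (171 and 78.0 CPM, −1.12) while Hspa8, a cytosolic chaperone, was higher (269 and 482 CPM, 0.84).

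Levels by cluster showed where these differences lay. Clstn2 was lower in the library labelled KO-CFC than in WT-CFC in all 7 clusters, for example 1996 against 2800 CPM in cluster 1 and 541 against 1412 CPM in cluster 4. Fth1 was highest in cluster 5 of the library labelled KO-CFC, at 1144 CPM, and lay between 379 and 780 CPM in the other 6 clusters of that library, above the 172 to 275 CPM of WT-CFC. Slc44a5 stood at 798 CPM in cluster 1 of WT-CFC and 156 CPM in that of the library labelled KO-CFC, on 126 and 5 UMIs. Clusters 6 and 7 of the library labelled KO-CFC held 3 nuclei each, and a level there rests on those nuclei.

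**Figure D5:**
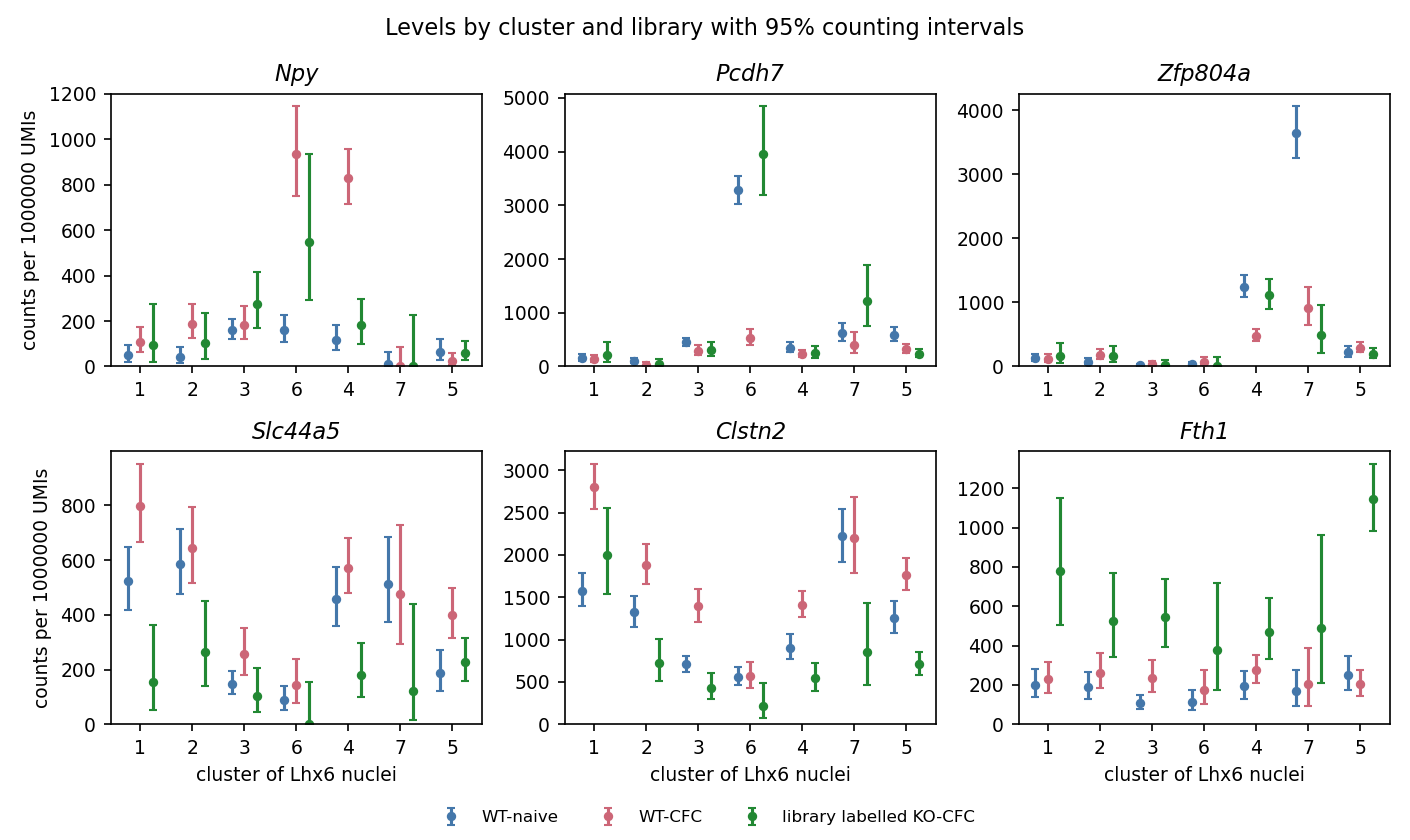
CPM of 6 genes in each cluster of Lhx6 nuclei, by library, with 95% Poisson counting intervals; the x axis is the cluster number, ordered by type. Npy is highest in clusters 4 and 6 of WT-CFC (830 and 933), Pcdh7 in cluster 6 of WT-naive and the library labelled KO-CFC (3283 and 3956), and Fth1 lies higher in the library labelled KO-CFC than in both wild-type libraries in all 7 clusters.

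The third comparison sets the library labelled KO-CFC against WT-naive, which differ in both genotype label and training and share their libraries with the first 2 comparisons. Of 1205 genes, 66 (5.48%) were at least 1.5-fold higher and 218 (18.1%) at least 1.5-fold lower, together 23.6%, and 20.5% passed the naming rule, with a median of −0.24; centred on it, 142 were higher and 82 lower. Pcsk1n (2.46), Acp1 (2.34), Fth1 (2.19) and Ubb (2.15) led the higher genes, each at 1.45 or more in the Sst and Adarb2 interneurons as well; Adarb2 came next and is described below. Bc1 (−2.08), Rn7sk, a nuclear noncoding RNA (−2.05), and Cmss1 (−1.76) led the lower genes and were similarly low over all other barcodes, at −2.49, −2.09 and −1.67. Pknox2 stood at 338 and 101 CPM (−1.73, −2.23 to −1.29) and Pde10a at 1087 and 374.1 CPM (−1.53, −1.78 to −1.30), lower in all 7 clusters and in both of the comparisons with this library, for which the library itself is shared. Asic2, an acid-sensing channel (887 and 383 CPM, −1.21), and Hdac4, a histone deacetylase (173 and 75.7 CPM, −1.17), were nearer 0 in granule neurons, at −0.24 and −0.38.

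Adarb2, the marker gene of the other interneuron lineage, showed how far 1 nucleus can carry such a ratio. It stood at 127.6, 332 and 449.8 CPM, a ratio of 1.82 between the last and the first. In the library labelled KO-CFC, 57.1% of its counts came from 1 nucleus, and 171 of 196 UMIs lay in cluster 5. Without cluster 5 the ratio was −0.23, and without the top nucleus of each library 0.87.

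The IL-3 receptor genes at the centre of the study were at the limit of detection in these nuclei. Csf2rb2 gave 1, 1 and 0 UMIs, Csf2rb 0, 0 and 0, and Il3ra 0, 1 and 1. A difference between genotypes was not detectable at this depth. Of the 13 genes on the receptor and signalling list, Jak1 alone reached 200 UMIs in the first comparison, at 83.5 CPM in WT-naive and 95.1 CPM in WT-CFC (0.19). None of the 21 immediate early and activity genes and none of 16 interferon response genes reached that number. Fos gave 1, 7 and 0 UMIs and Nr4a1 16, 7 and 0. Homer1 stood at 61.8, 60.4 and 32.1 CPM.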

How the data were processed

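Single nuclei from 3 libraries were used, 1 per group, of 5 libraries in the series. The 2 dissociated-cell libraries held 0 members and were not compared. The deposited UMI counts per gene and barcode were made by the authors; the file headers name Cell Ranger 8.0.1 as the software, and Seurat 5.4.0, GRCm39 and mm39 stand in the submitters' processing notes, and the annotation release and strand setting are not given in the sources used here. Counts were summed over the members of a library and divided by their total. Ratios are log2 with 0.5 counts added, for genes with at least 200 counts, with exact conditional binomial intervals; shares have exact Clopper-Pearson intervals. Without replicate libraries there is no test. The labels do not say how mice were pooled.

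The members, the 25 gene lists and the markers were chosen with earlier results of these data known. Named genes are the 12 highest and 12 lowest past 1.5-fold whose interval excludes 0 and whose CPM is at least 50% of that over all other retained barcodes, leaving out unnamed models, mitochondrial, ribosomal and haemoglobin genes, Xist, Tsix and Y-linked genes, plus the genes of the rule and up to 4 per list. Cluster names were given by hand from marker lists. Doublet scores were computed by simulating doublets within a library, and no nucleus was removed; leaving out the highest 8% was an alternative. Other alternatives changed the limits of the rule, the depth, the scaling and the mix of kinds, and those by cluster, mix or top nucleus were chosen after seeing the data. Python 3.11.15, numpy 2.4.6, scipy 1.17.1, pandas 2.3.3 and scikit-learn 1.9.0 were used, and ratios were tested on simulated data. A few genes that met these rules are not reported here.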

Additional observations from a re-analysis of the deposited data

Results flagged for a closer look

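For 4 named genes, Lhx6 nuclei and another class of the same 2 libraries stood on opposite sides of 0, and the difference was not tested, with 1 library per group. Nrg1, WT-CFC over WT-naive, was at −1.29 in Lhx6 nuclei and 0.89 in granule neurons. Zfp804a was at −0.90 in Lhx6 nuclei and 0.75 in Sst interneurons for the same pair of libraries. Npy, the library labelled KO-CFC over WT-CFC, was at −1.20 in Lhx6 nuclei and 1.10 in granule neurons. Its value in Lhx6 nuclei was 0.07 after thinning to 1000 UMIs. Adarb2, the library labelled KO-CFC over WT-naive, was at 1.82 in Lhx6 nuclei and −0.73 in Adarb2 interneurons. Its value in Lhx6 nuclei was −0.23 without cluster 5, on the same side of 0 as in Adarb2 interneurons. That class is itself set by its Adarb2 UMIs.

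The dissociated-cell libraries, which enter no comparison, held a few GABAergic barcodes, 8 after conditioning and 33 after random foot shocks. None of these met the rule for Lhx6 nuclei.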

How the results depend on the processing

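No paired analysis was possible because each group is 1 library. Over the alternatives, the named genes gave 1221 values inside the reported counting interval and 209 outside it. Another 10 values of ratios past 1.5-fold changed sign. Sign changes of ratios nearer 0 are not among these: for WT-CFC over WT-naive, Lhx6 was 0.0932 at 0 Slc17a7 UMIs and 0.276 at up to 5 glial UMIs, and Pvalb 0.064 at 4 Gad UMIs.

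The share of members moved with the rule. In WT-naive it was 1.61% at 2000 UMIs, 0.877% at 0 Sst UMIs, 0.999% at 0 Slc17a7 UMIs, 0.899% at 4 Gad UMIs, 0.289% at 2 Lhx6 UMIs, 0.866% at up to 5 glial UMIs and 0.0444% for the rule after thinning. In the library labelled KO-CFC the same settings gave 0.962, 0.486, 0.516, 0.501, 0.133, 0.383 and 0.0295%. In WT-CFC it was 0.791% at a mitochondrial share of at most 1%, and 0.686, 0.205, 0.590 and 0% at 0 Slc17a7, 2 Lhx6, 5 glial UMIs and thinning. Unthinned, nuclei with a UMI were 13.7, 14.5 and 12.2% for Pvalb, 33.3, 48.2 and 22.4% for Lamp5 and 32.5, 19.3 and 32.7% for Sst. Thinned to 2000 UMIs, Lamp5 was 16.2 and 18.3% in the wild-type libraries and Sst 12.2% in the library labelled KO-CFC.

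Counts of genes past 1.5-fold, higher then lower, moved most with the count minimum and with thinning. For WT-CFC over WT-naive they were 475 and 350 at 50 counts, 7098 and 7467 at 1 count, and 1 and 4 after thinning; 43 were higher at a mitochondrial share of at most 1%, 44 higher at 0 Sst UMIs and 31 lower at 2 Lhx6 UMIs. For the library labelled KO-CFC over WT-CFC they were 685 and 703, 8962 and 4511, and 0 and 14; 3 and 94 at 2 Lhx6 UMIs; 24 and 135 at up to 5 glial UMIs; 123 and 83 with TMM or centring; and 35, 26 and 38 higher at 0 Sst UMIs, at 0 Slc17a7 UMIs and without cluster 5. Over WT-naive they were 848 and 638, 9684 and 4899, and 0 and 20; 21 and 145 at 0 Sst UMIs; 8 and 108 at 2 Lhx6 UMIs; 27 and 141 at up to 5 glial UMIs; 142 and 82 with TMM or centring; and 34 higher at 0 Slc17a7 UMIs.

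Ratios past 1.5-fold and list medians that changed sign had causes that were not tested. For WT-CFC over WT-naive, at 2 Lhx6 UMIs Pcdh11x was 1.13, potassium channels −0.0152 and sodium, calcium and HCN channels −0.0391; Cacng3 was 0.0297 after thinning and Sst 0.0487 at 0 Sst UMIs. Vesicle genes were −0.00103 and mitochondrial genes −0.32 at a mitochondrial share of at most 1%, and library quality RNA 0.10 at 50 counts. For the library labelled KO-CFC over WT-CFC, Npy was 0.0744 after thinning and Sst −0.32 at 2 Lhx6 UMIs. Transcription factors were 0.000821 with TMM and 0.000755 centred, and potassium channels 0.0175 and 0.0174. Mitochondrial genes were −0.15 at 0 Sst UMIs, −0.0615 without high doublet scores and −0.67 at up to 5 glial UMIs. Over WT-naive, Adarb2 was −2.06 at 2 Lhx6 UMIs, −1.33 at up to 5 glial UMIs and −0.23 without cluster 5, and Pcdh11x 0.69 and 0.39 at the first 2 of these. GABA synthesis genes were 0.0268 without high doublet scores, 0.13 with TMM, 0.14 centred and 0.0683 at one mix, and mitochondrial genes −0.0353 at up to 5 glial UMIs. At 49 to 117 nuclei per library, genes under 200 counts could not be read.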
